A study of Saccharomyces cerevisiae with 4 samples.

Results

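Heat at 40 °C in the budding yeast strain labelled hsp30Δ was read from 2 of the 4 expression arrays of the series. The array titled hsp30Δ 30°C holds RNA from cells growing exponentially in YPD, a rich glucose medium, at 30 °C. The array titled hsp30Δ 40°C holds RNA from such cells after 30 min at 40 °C. They are called here the unheated and the heated array. By its label the strain is BY4741 with HSP30 replaced by the kanMX drug-resistance cassette (hsp30Δ::kanMX). BY4741 is a laboratory haploid of mating type a with the alleles his3Δ1, leu2Δ0, met15Δ0 and ura3Δ0, and it was arrayed at the same temperatures. Each group is 1 array, and the number of cultures or clones behind an array is not given in the sources used here. The series looks for genes whose expression depends on HSP30, and the question here is what heat changed under the deletion label. With 1 array a side every value below is a size with no replicate spread, and no test was possible within the strain. Per gene, the difference is the heated minus the unheated array on a log2 scale, and 5430 of 5436 named genes could be compared. Counts of higher or lower genes hold those at least 2-fold apart, and smaller differences are given as values.

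Yeast meets a shift to about 40 °C with the heat shock factor Hsf1, which drives chaperone genes, and with Msn2 and Msn4, which drive general stress genes. Genes for ribosomes and their assembly are turned down for a time in the same shift. Hsp30 is a plasma membrane protein induced by heat and known to lower the activity of Pma1, the proton pump there. Glucose controls another large part of the genome: it represses genes for gluconeogenesis, the glyoxylate cycle and respiration, and it sets which hexose transporters are made.

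The deletion label was checked first. HSP30 read 15.18 on the unheated and 15.91 on the heated array, against 15.51 and 14.18 for unheated and heated BY4741. It lay above 98.0% of genes on the unheated and above 99.9% on the heated array. The HSP30 signal thus goes against the deletion label, unless its probes lie outside the deleted part, which was not checked here. The strain is therefore named only by the label of its arrays. MET17, the MET15 gene under its other name and absent from the parent by the met15Δ0 label, read 1.95 on all 4 arrays, which is the lowest value of the table. HIS3, of which his3Δ1 keeps a part, read 9.95 on the unheated and 10.15 on the heated array. Of the a-cell markers, STE2, the alpha-factor receptor, read 13.90 on the unheated and 14.26 on the heated array, and MFA1, an a-factor gene, from 13.33 to 14.45. Of the alpha-cell markers, MF(ALPHA)1, the main alpha-factor gene, read from 3.56 to 3.69, STE3, the a-factor receptor, from 8.41 to 8.71 and SAG1, the alpha-agglutinin gene, from 10.86 to 10.82. The a markers were thus high, the main alpha-factor gene was near the bottom of the scale, and STE3 and SAG1 were not.

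Of 5430 genes, 88 were higher (1.62%) and 85 lower (1.57%) on the heated array, 3.19% in all. For BY4741, read from arrays that the hsp30Δ comparison does not use, 1027 were higher (18.9%) and 1021 lower (18.8%), 37.7% in all. Under the hsp30Δ label 78.1% of genes lay within 0.5 log2 units of no difference, with a median of 0.01 and an interquartile range of 0.51, against 1.51 in BY4741. Of all 5430 genes, 2783 lay above 0 and 2639 below 0, the split beside which counts of list members above or below 0 stand. Past 4-fold were 6 genes upward and 7 downward. The spread was widest at low to middle levels. The standard deviation (SD) over genes was 0.48 for the 66 genes with a mean level under 4, 0.99 for 4 to 6, 0.68 for 6 to 8, 0.43 for 10 to 12 and 0.25 at 14 and above. Of the 448 genes with a mean level under 8, 11.4% were past 2-fold, and of the 4982 brighter genes 2.45%. A dim gene past 2-fold is for this reason weaker evidence than a bright one.

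**Figure D1:**
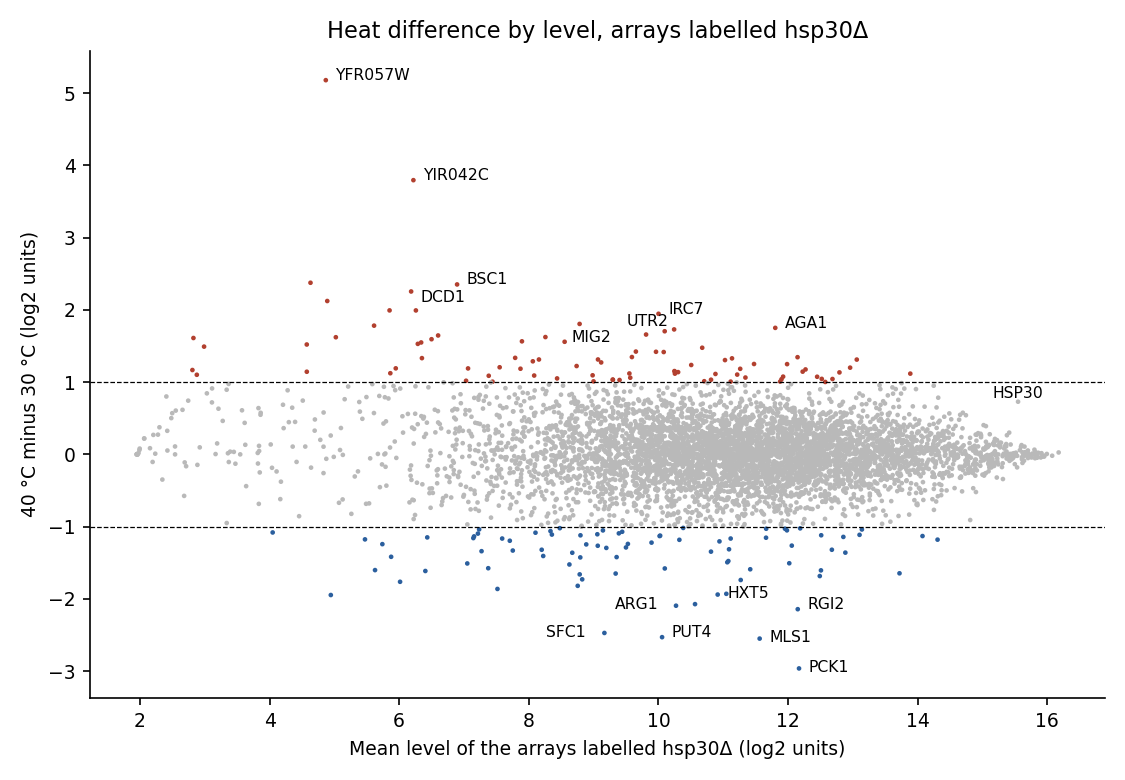
Each point is 1 of 5430 genes; the horizontal axis is its mean log2 level on the arrays labelled hsp30Δ and the vertical axis the heated minus the unheated array, with dashed lines at 2-fold. Above a level of 6 the points narrow toward high levels, PCK1, MLS1 and RGI2 stand out downward among bright genes, and YFR057W and YIR042C stand out upward among dim ones.

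Genes of gluconeogenesis, the glyoxylate cycle and acetate use formed the group with the lowest median. Of 25 genes in the list 9 were lower and 0 higher, beside 1.57% and 1.62% of all genes, and the median was -0.59 log2 units, beside 0.01 over all genes. PCK1, the phosphoenolpyruvate carboxykinase that commits carbon to gluconeogenesis, read 13.65 on the unheated and 10.69 on the heated array, 7.80-fold lower. This was the lowest difference among all genes. MLS1, the malate synthase of the glyoxylate cycle, went from 12.84 to 10.29 (5.86-fold lower), and ICL1, the isocitrate lyase of that cycle, from 12.77 to 11.27 (2.84-fold). FBP1, fructose bisphosphatase, another enzyme particular to gluconeogenesis, went from 12.01 to 10.08 (3.81-fold). Transport steps of the same metabolism were lower too. SFC1, the mitochondrial carrier that exchanges succinate for fumarate, went from 10.40 to 7.93 (5.55-fold), and JEN1, the lactate and pyruvate permease, from 13.56 to 12.20 (2.57-fold). The carnitine acetyltransferase genes YAT1 (from 12.14 to 10.40) and YAT2 (from 11.81 to 10.32) and CIT2, the peroxisomal citrate synthase (from 14.90 to 13.72), complete the 9.

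The activators of these genes differed less between the arrays than the 9 genes did. CAT8, a zinc-cluster activator of gluconeogenic genes, went from 14.27 to 13.89, ADR1, an activator of genes for ethanol and fatty acid use, from 13.35 to 13.07, and SIP4 read 12.07 on the unheated and 12.10 on the heated array. None of these was past 2-fold. In BY4741, YAT1 (10.14 and 10.72 at 30 °C and 40 °C) and CIT2 (14.22 and 15.06) stayed within 2-fold, and the others of the 9 were higher with heat. PCK1 read 10.04 and 14.16 there at 30 °C and 40 °C, MLS1 9.54 and 12.85 and ICL1 9.37 and 13.09. In BY4741 18 of 25 members were higher and 0 lower, beside 18.9% and 18.8% of all genes there, with a median of 2.45. The levels on the heated hsp30Δ array, such as 10.08 for FBP1 and 10.69 for PCK1, lay within 1 log2 unit of those on unheated BY4741, 9.99 and 10.04, whereas ICL1, SFC1, YAT2 and JEN1 stayed further above them, with 9.37, 6.61, 8.67 and 8.89 on unheated BY4741. With 1 array in each group the difference between the strains in this response was not tested.

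Genes of glucose uptake read higher or lower depending on the transporter. The list of hexose transporters and glucose sensors held 4 higher and 3 lower genes among 23, beside 1.62% and 1.57% of all genes. Its median of 0.11 ran from 0.02 to 0.27 with other processing. HXT5, a transporter made in slow growth and on poor carbon sources, read 11.88 on the unheated and 9.94 on the heated array, 3.84-fold lower. HXT3, a low-affinity transporter used in high glucose, went from 11.36 to 12.61 (2.38-fold higher), and HXT2, a high-affinity one, from 9.89 to 11.13 (2.36-fold higher). MIG2, a repressor that glucose induces, went from 7.77 to 9.33 (2.95-fold higher). HXT14, a distant family member, went from 8.48 to 9.75, while HXT11, another member, went from 9.98 to 8.91. RGT1, the repressor of HXT genes, was lower as well (from 12.47 to 11.44, 2.04-fold). HXT4 (from 13.77 to 14.72) and the hexokinase gene HXK2 (from 13.30 to 13.95) stayed under 2-fold. On BY4741 at 30 °C and 40 °C HXT3 read 14.13 and 11.88, HXT2 13.71 and 10.86 and MIG2 8.86 and 5.57, so each was lower with heat there. HXT genes are alike in sequence, and their probes may read more than 1 member. The probe sets used for HXT2, HXT3, HXT5, HXT11 and HXT14 carry no mark of sharing sequence with other genes.

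**Figure D2:**
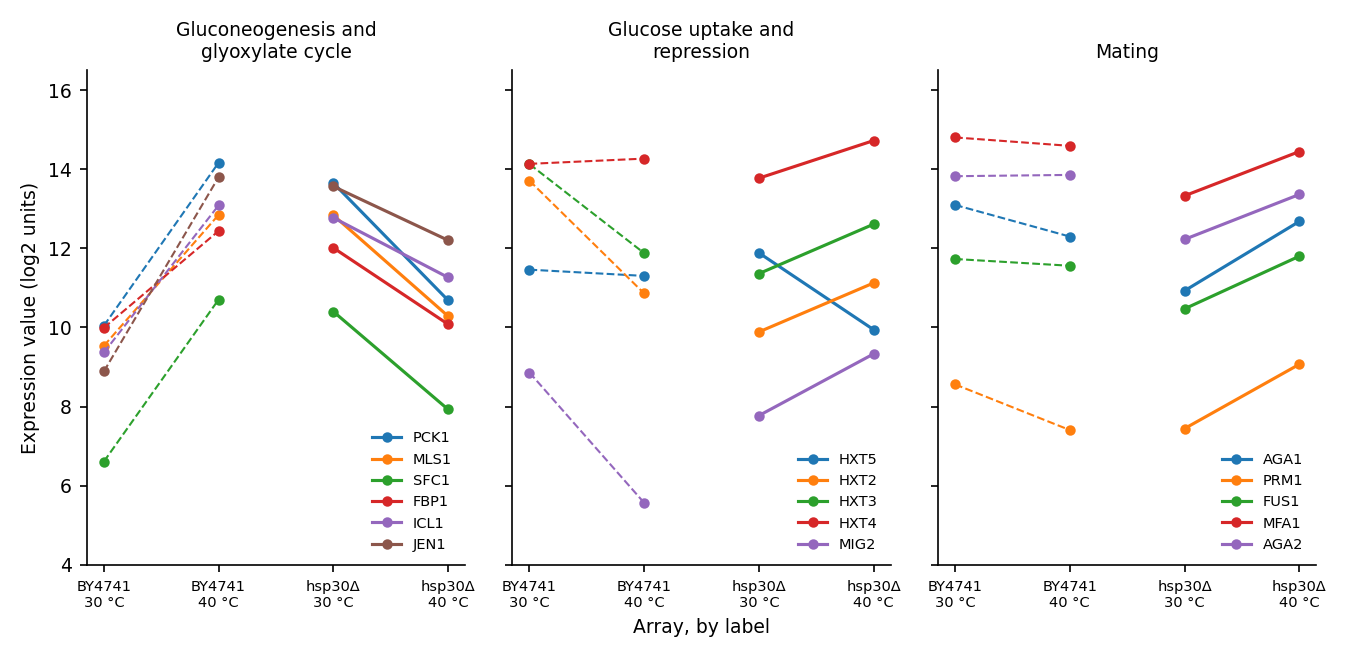
Log2 expression values of 16 genes on the 4 arrays, in order BY4741 unheated and heated (dashed) and the hsp30Δ label unheated and heated (solid); each point is 1 array and lines join arrays of one label. PCK1, MLS1 and ICL1 go up with heat in BY4741 and down under the hsp30Δ label, while HXT2, HXT3 and MIG2 do the reverse.

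Other genes tied to poor carbon sources were among the lowest. RGI2, a gene of respiratory growth, went from 13.22 to 11.08 (4.42-fold lower), and YGR067C, an uncharacterized zinc-finger gene, from 11.60 to 9.53 (4.21-fold). POX1, the first enzyme of peroxisomal beta-oxidation, went from 9.39 to 7.86 and PEX18, a peroxisomal import factor, from 10.89 to 9.87. These are the 2 members of 25 in the beta-oxidation and peroxisome list past 2-fold, beside 3.19% of all genes. The list median was -0.23. The respiratory chain and ATP synthase list, assembly factors included, had a median of -0.19, with 42 of 56 members below 0 and none past 2-fold. INH1, an inhibitor of the ATP synthase, was its lowest (from 14.13 to 13.28), followed by the assembly factor COX14 (from 13.86 to 13.08). For enzymes of the TCA cycle the median was 0.05, and all 18 lay between -0.53 and 0.23. Glycolysis had a median of 0.15, fermentation of 0.06, and neither list had a member past 2-fold. Among 13 genes for other sugars, GAL10 (from 6.84 to 7.93) and IMA5 (from 9.04 to 10.10) were higher, beside 1.62% of all genes.

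Several mating genes read higher on the heated array. The pheromone signal of yeast runs from a receptor through a kinase cascade to the activator Ste12, which drives genes for cell adhesion and fusion. Of 34 genes of the pheromone response 5 were higher and 0 lower, with a median of 0.21. Over all genes 1.62% were higher and 1.57% lower. AGA1, the anchor of the a-cell agglutinin, read 10.93 on the unheated and 12.68 on the heated array, 3.37-fold higher. PRM1, which acts in membrane fusion, went from 7.44 to 9.07 (3.08-fold), FUS1, a cell fusion gene, from 10.47 to 11.80 (2.51-fold), FIG1 from 6.47 to 7.66 and KAR4, a transcription factor of mating, from 9.68 to 10.83. STE12 itself was 0.33 log2 units higher, the kinase gene FUS3 from 10.34 to 10.86 and GPA1, which couples the receptor, from 12.12 to 12.84, all under 2-fold. Of 9 genes that a cells express, 8 were above 0 and 2 past 2-fold, with a median of 0.53, the highest of the 54 lists. AGA2, the binding subunit of the agglutinin, went from 12.23 to 13.36 (2.20-fold), MFA1 2.17-fold higher, and BAR1, the protease that degrades alpha-factor, from 13.26 to 14.25.

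AGA1, MFA1 and AGA2 were lower on the unheated hsp30Δ array than on either BY4741 array. There, at 30 °C and 40 °C, AGA1 read 13.10 and 12.30, MFA1 14.80 and 14.59 and AGA2 13.82 and 13.86, and on the heated hsp30Δ array they came within 0.5 log2 units of the unheated BY4741 values. MF(ALPHA)2, a minor alpha-factor gene, went from 3.83 to 5.95 at low levels, 4.36-fold higher, whereas MF(ALPHA)1 stayed near 3.56.

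Genes of arginine and nitrogen metabolism held several of the lowest genes. PUT4, the proline permease, read 11.32 on the unheated and 8.79 on the heated array, 5.78-fold lower. ARG1, the argininosuccinate synthetase, went from 11.32 to 9.22 (4.27-fold lower). CPA1, a subunit of the carbamoyl phosphate synthase of arginine synthesis, went from 14.64 to 13.51 (2.19-fold). YOR302W, the short reading frame upstream of CPA1 that codes for its arginine attenuator peptide, went from 13.33 to 11.65 (3.21-fold), so that the leader and its gene were lower together. ARG80, a regulator of arginine genes, went from 8.42 to 7.09, and ARG3, the ornithine carbamoyltransferase, from 12.40 to 11.69, under 2-fold. In the list for arginine, lysine and histidine 2 of 25 were higher and 2 lower (median 0.29), beside 1.62% and 1.57% of all genes. HIS4 (from 12.40 to 13.72, 2.48-fold higher) and LYS9 (from 10.81 to 11.87) were the higher ones. The branched-chain and aromatic list had a median of 0.28, with ILV3 (from 10.67 to 11.85) the only 1 of 25 past 2-fold.

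Uptake and use of nitrogen sources leaned downward, with 32 of 43 permease and nitrogen-use genes below 0 and a median of -0.30. Of the 43, PUT4 and the ammonium permease gene MEP1 (from 10.58 to 9.45) were past 2-fold, both lower, beside 1.57% of all genes. PTR2, the peptide transporter, went from 13.93 to 12.97, and DIP5, a permease for acidic amino acids, from 13.74 to 12.89. In BY4741 PUT4 read 8.40 and 8.32, ARG1 9.87 and 8.58 and YOR302W 9.38 and 9.09 at 30 °C and 40 °C, so their highest value was that of the unheated hsp30Δ array. STR3, an enzyme of cysteine and methionine interconversion, showed the same order: 7.44 and 7.97 in BY4741, and 10.17 on the unheated and 8.52 on the heated array under the hsp30Δ label (3.14-fold lower). It was the only 1 of 32 sulfur genes past 2-fold, and MET28, a regulator of the sulfur genes (from 12.04 to 11.21), and MUP1, a methionine permease (from 13.50 to 12.66), were lower by less. IRC7, a gene of cysteine breakdown, was 3.85-fold higher (from 9.03 to 10.97).

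Most genes for tRNA synthetases and translation factors read higher by under 2-fold. Of 50 members, 43 were above 0, beside 2783 of 5430 genes, with a median of 0.43. Only 2 passed 2-fold, both higher, beside 1.62% of all genes. FRS1, a subunit of the phenylalanine synthetase, went from 11.65 to 12.80 (2.21-fold), and SES1, the serine synthetase, was 2.06-fold higher with 13.04 on the heated array. DED1, an RNA helicase of translation initiation, went from 14.61 to 13.96, against the direction of the list. In BY4741 32 of these genes were lower and 0 higher, beside 18.8% and 18.9% of all genes there, with a median of -1.41. The median level of the list was 13.91 and 12.47 in BY4741 at 30 °C and 40 °C. Under the hsp30Δ label it was 11.92 unheated and 12.51 heated, so the heated array came near the heated BY4741 level from below.

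Ribosomal protein and ribosome biogenesis genes showed no common direction between the unheated and heated arrays. Of 128 genes named as ribosomal proteins, RPP1 of ribonuclease P included through its name, 1 was higher and 2 lower (median 0.02). The higher one was RPP1B, a stalk protein (from 11.68 to 12.86), and the lower ones were RPL22A (from 10.15 to 8.91) and RPS27A (from 13.07 to 11.95). Ribosome biogenesis had 5 higher and 6 lower genes among 95, against 1.62% and 1.57% of all genes, with a median of -0.04. NOP56, a core protein of the box C/D particles that guide RNA methylation, went from 9.38 to 11.11 (3.32-fold higher), CBF5, the pseudouridine synthase, from 9.67 to 10.82, and NOP2 from 8.44 to 9.53. KRR1, a factor of the small subunit processome, went from 7.21 to 5.60 (3.06-fold lower), NOP15 from 9.70 to 8.43 and NOP7 from 7.72 to 6.59. Each of these was lower on the unheated hsp30Δ array compared with unheated BY4741, where NOP56 read 13.09 and KRR1 9.70. This did not hold for all biogenesis genes past 2-fold. BUD23 went from 10.91 to 9.73 and NOP16 from 11.54 to 10.34, beside 9.78 and 11.60 on unheated BY4741. In BY4741 87 of the 95 biogenesis genes were lower at 40 °C, beside 18.8% of all genes there, with a median of -2.81. Of the 128 ribosomal protein genes 119 were lower there, with a median of -2.01. The median level of the ribosomal protein list was 14.86 and 12.76 in BY4741 at 30 °C and 40 °C, and 12.51 on both hsp30Δ arrays. For biogenesis it was 11.29 and 8.47 in BY4741, and 8.49 unheated and 8.43 heated under the hsp30Δ label. Both lists were thus already near the heated BY4741 level on the unheated hsp30Δ array. Many ribosomal protein genes have a near-identical copy that may share probes. The probe sets used for RPP1B, RPL22A and RPS27A carry no mark of sharing sequence with other genes.

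**Figure D3:**
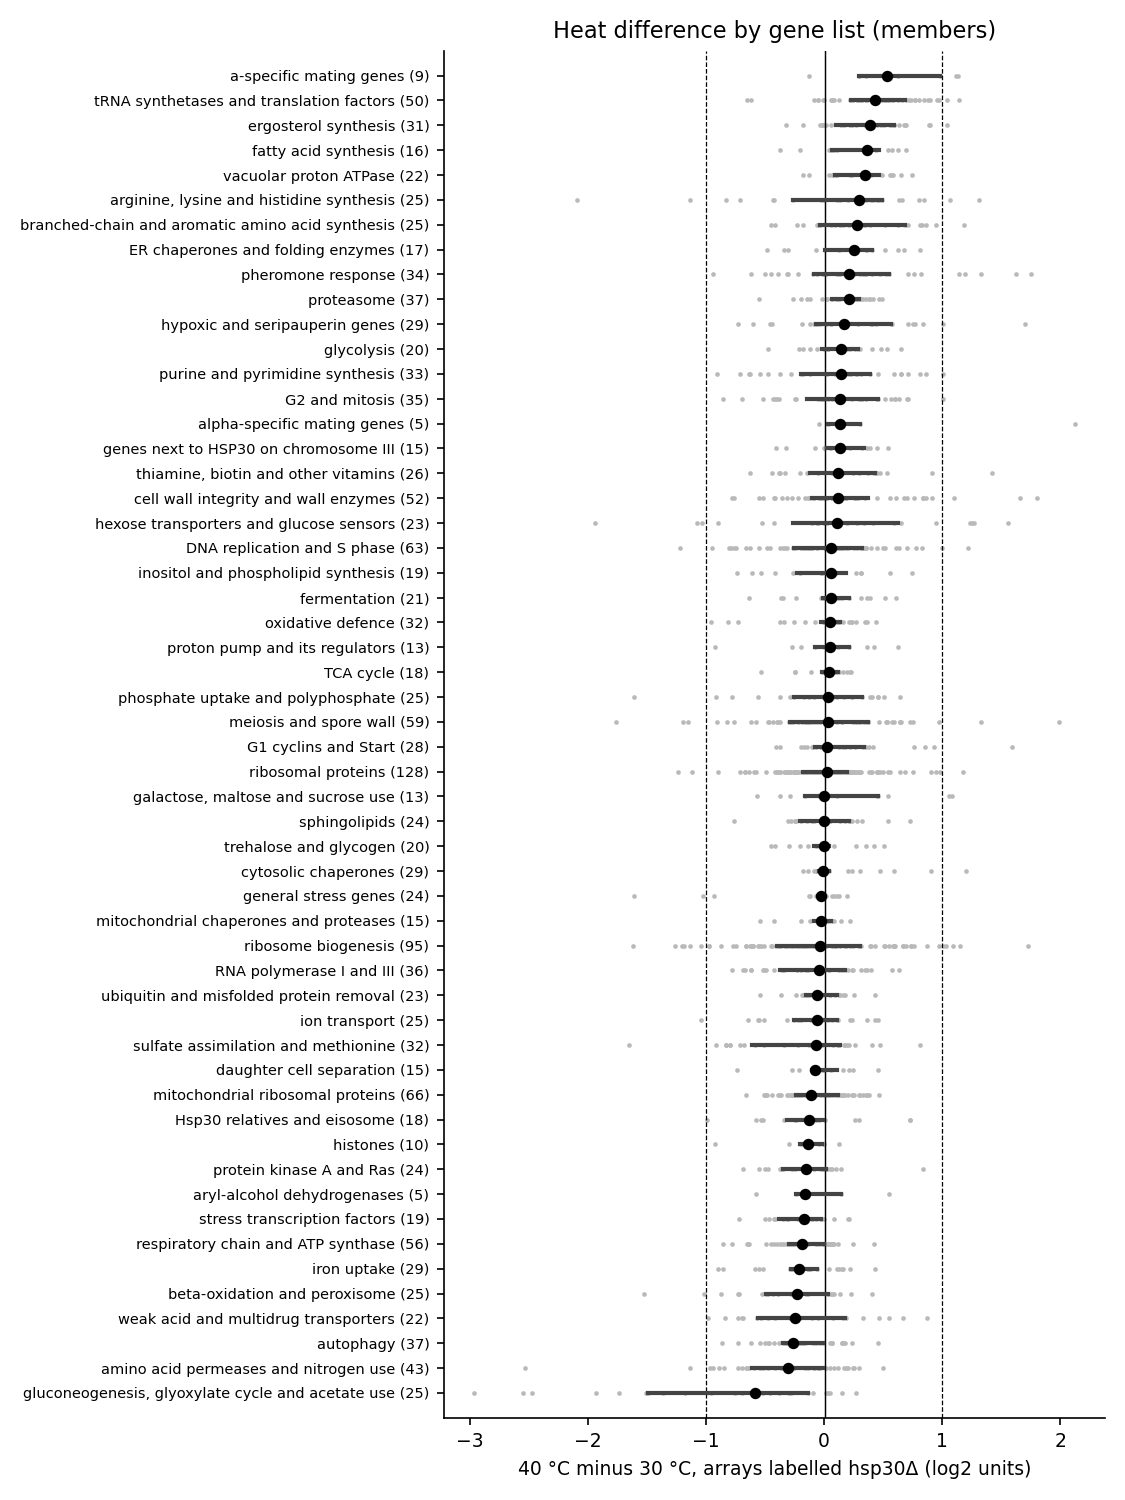
Differences of the heated minus the unheated array labelled hsp30Δ for the members of 54 gene lists (number of members in brackets); grey points are genes, black points list medians, thick lines the interquartile range of members, the solid line the median of all genes and the dashed lines 2-fold. The gluconeogenesis list reaches farthest down with a median of -0.59, and the medians of all lists lie between -0.59 and 0.53.

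Chaperone genes near the top of the scale read almost the same on the unheated and heated arrays. Of 29 cytosolic chaperones 1 was higher and 0 lower, beside 1.62% and 1.57% of all genes, with a median of -0.01. HSP104, the disaggregase, read 15.72 on the unheated and 15.71 on the heated array, HSP82, the inducible Hsp90, from 15.64 to 15.61, and SSA4, an inducible Hsp70, from 15.92 to 15.88. HSP26 and HSP42, the small heat shock proteins, went from 16.08 to 16.07 and from 15.82 to 15.83. Each of these lay close to the highest value of its array, 16.16 unheated and 16.19 heated, and on both arrays the list had a median level above 15.4. The 20 members at 15 or above on the unheated array differed by -0.18 to 0.02. Of the 9 members under 15, CUR1 and SNL1 read alike and the other 7 were higher by 0.20 or more. With the probe sets used, SSB2 alone was past 2-fold. CUR1, which sorts misfolded proteins, read 14.61 on both arrays, and AHA1, an Hsp90 activator, from 15.20 to 15.21. In BY4741 at 30 °C and 40 °C CUR1 read 10.67 and 10.97 and AHA1 13.56 and 13.38. The unheated hsp30Δ array was thus already near or above the heated BY4741 level for many of these genes. HSP104 read 15.23 and 15.73 and HSP42 15.28 and 15.74 in BY4741, and SSA3, an Hsp70 of stationary phase and stress, 11.23 and 15.12, beside 15.57 on the unheated and 15.43 on the heated array under the hsp30Δ label. What set the level of the unheated array was not tested.

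The chaperones that bind new chains at the ribosome read higher on the heated array. SSB2, a ribosome-bound Hsp70, read 12.36 on the unheated and 13.56 on the heated array, 2.30-fold higher. Its near-identical copy SSB1 went from 13.52 to 14.43, and their probes may not tell the copies apart. The SSB2 probe set carries no mark of sharing sequence with other genes. Another SSB1 probe set, dimmer and not used here, read 1.21 log2 units higher on the heated array, past 2-fold. ZUO1 and SSZ1, the partners that hold them at the ribosome, went from 12.36 to 12.95 and from 11.95 to 12.43. These 4 genes had the highest differences of the list, and in BY4741 all 4 were lower at 40 °C, such as SSB2 (14.94 and 13.27) and ZUO1 (14.75 and 12.39).

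**Figure D4:**
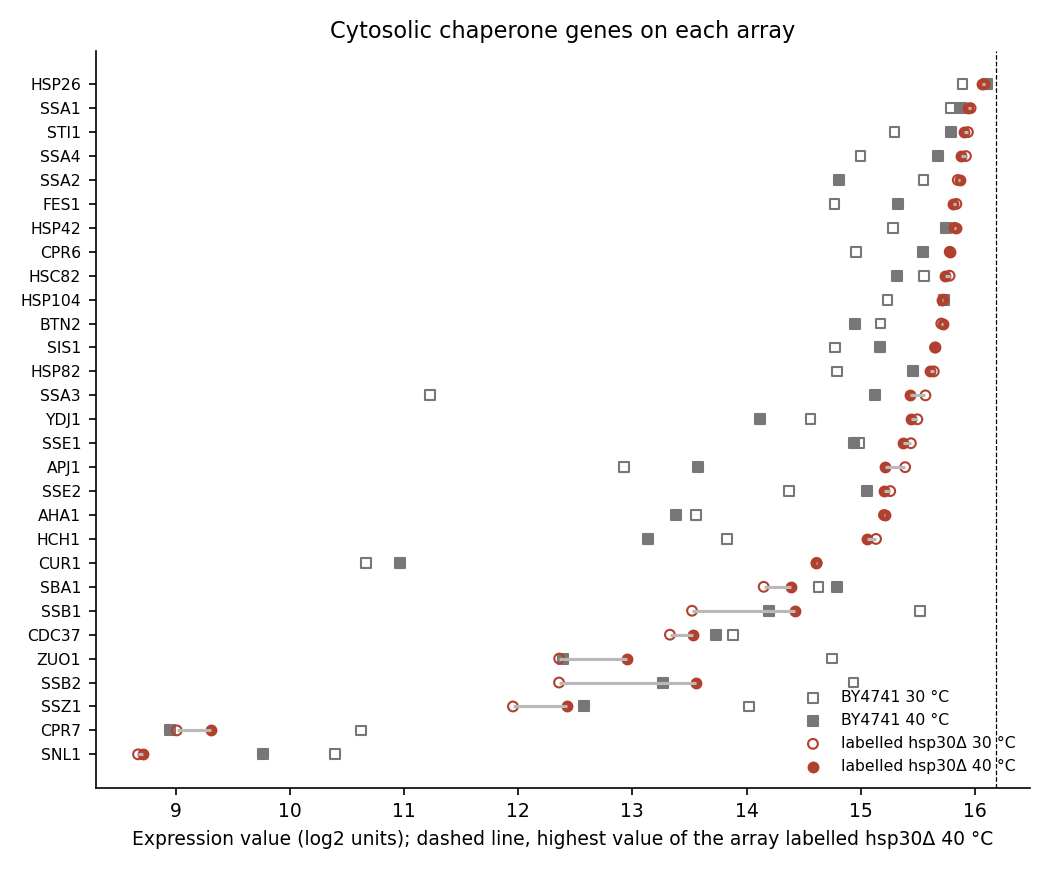
Log2 expression values of 29 cytosolic chaperone genes on each array; squares are BY4741 and circles the arrays labelled hsp30Δ, open at 30 °C and filled at 40 °C, with a grey bar between the circles. Open and filled circles coincide for most genes near the top of the scale, and SSB1, SSB2, ZUO1 and SSZ1 have the longest bars.

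Mitochondrial chaperones and proteases had a median of -0.03, with HSP60 (from 15.74 to 15.71) and HSP78 (from 15.73 to 15.68). Of these 15 genes 5 were at 15 or above unheated. General stress genes had a median of -0.02 and a median level of 15.42 unheated. There 20 of 24 were at 15 or above, close to the highest value of that array, 16.16. HSP12 went from 15.99 to 16.00 and CTT1, the cytosolic catalase, from 15.04 to 15.16. Of the 24 genes, only PHM7 (from 13.31 to 11.71, 3.04-fold lower) and GRE1 (from 12.70 to 11.68) passed 2-fold, beside 3.19% of all genes. Trehalose and glycogen genes had a median of 0.00 with none past 2-fold, among them TPS1 (from 15.49 to 15.50), and 9 of 20 were at 15 or above unheated. Of 19 genes for stress transcription factors 16 were below 0 (median -0.17). HSF1 went from 12.42 to 12.31, MSN2 from 12.07 to 11.35 and MSN4 from 12.97 to 13.17. ER chaperones leaned upward with a median of 0.26: EUG1 went from 10.26 to 11.08 and LHS1 from 9.16 to 9.83, while KAR2, the ER Hsp70, stayed at 15.77 and 15.78. The proteasome list, which holds the activator gene RPN4 through its name, had 31 of 37 genes above 0, a median of 0.21 and none past 2-fold. Its highest was UMP1, an assembly factor (from 12.12 to 12.62). Oxidative defence (median 0.05) and ubiquitin genes (-0.06) had none past 2-fold.

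Genes of the proton pumps, the setting in which Hsp30 is known, stayed under 2-fold. PMA1, the plasma membrane pump, read 14.04 on the unheated and 14.46 on the heated array, against 14.94 and 13.87 in BY4741 at 30 °C and 40 °C. Its regulators PTK2 (from 14.21 to 14.21) and HRK1 (from 14.92 to 14.85), kinases that activate the pump, read almost the same, and the kinase gene PTK1 read lower (from 12.19 to 11.26), just under 2-fold. The list of the pump and its regulators had a median of 0.05. Of 22 genes of the vacuolar proton ATPase and its assembly 20 were above 0, with a median of 0.35. VMA22 (from 9.72 to 10.46), an assembly factor, and VPH2 (from 8.96 to 9.61) led, followed by the catalytic-sector subunits VMA5 (from 11.81 to 12.39) and VMA2 (from 13.28 to 13.86), and none passed 2-fold. Hsp30 relatives and eisosome genes had a median of -0.13: MRH1 went from 14.79 to 15.08, YRO2 from 15.21 to 14.98, PIL1 from 15.22 to 15.08 and FHN1 from 9.31 to 8.32. In the ion transport list (median -0.06) ENA5, a sodium pump gene, was 2.06-fold lower (from 13.66 to 12.62), but this probe set is marked as sharing sequence with other genes, and the probe set with no such mark read 0.17 log2 units higher.

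Most sterol and fatty acid genes read higher by small amounts. Ergosterol genes had a median of 0.39, with 25 of 31 above 0 and ERG5, the sterol desaturase, past 2-fold (from 11.38 to 12.42). ERG13, the HMG-CoA synthase, went from 12.05 to 12.95 and UPC2, a sterol-sensing activator, from 8.10 to 8.79. Fatty acid synthesis had a median of 0.36 with 14 of 16 above 0, among them IFA38 (from 12.79 to 13.49) and TSC13 (from 13.10 to 13.72) of the elongation cycle. Sphingolipid genes had a median of 0.00, and inositol and phospholipid genes of 0.06, with INO2 (from 12.16 to 11.42) and INO1 (from 9.59 to 8.98) both lower by less than 2-fold.

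The lists for drug export, autophagy and iron uptake leaned downward. Weak acid and multidrug transporters had a median of -0.25 with 14 of 22 below 0. RTA1 had the highest difference of that list (from 7.83 to 8.71). PDR10 (from 12.38 to 11.40), PDR15 (from 14.29 to 13.45) and YOR1 (from 14.33 to 13.65), pumps under the regulator Pdr1, read lower, and PDR12, the weak acid pump, read higher (from 13.17 to 13.64), all under 2-fold. Autophagy genes had a median of -0.26 with 28 of 37 below 0, led by the lipase gene ATG15 (from 11.23 to 10.36) and by ATG12 (from 10.18 to 9.46). Iron uptake genes had a median of -0.21 with 22 of 29 below 0, led by SIT1 (from 11.18 to 10.28) and FIT2 (from 13.31 to 12.45). None of these 3 lists had a member past 2-fold.

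Cell wall and cell cycle lists held a few genes past 2-fold. Of 52 wall genes 3 were higher and 0 lower, beside 1.62% and 1.57% of all genes, with a median of 0.12. UTR2, which links chitin to glucan in the wall, read 8.98 on the unheated and 10.64 on the heated array, 3.16-fold higher, and SCW10, a wall glucanase-like protein, went from 10.66 to 11.77. GAS4, a wall enzyme of spores, went from 7.88 to 9.69 (3.50-fold). FKS1, the glucan synthase, went from 13.20 to 14.04, under 2-fold. PCL1, a G1 cyclin of the kinase Pho85, went from 5.70 to 7.30 (3.02-fold higher), while CLN1 went from 9.42 to 9.01, CLN2 from 9.79 to 9.77 and CLN3 from 12.39 to 12.75. The list of G1 cyclins and Start had a median of 0.03, G2 and mitosis 0.14 with BUD4 higher (from 10.61 to 11.62), and DNA replication 0.06 with the cohesin gene IRR1 higher (from 8.13 to 9.35) and PSF3, of the replicative GINS complex, lower (from 10.50 to 9.28). Histone genes had a median of -0.13 and daughter separation genes of -0.07, with none past 2-fold.

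Meiosis genes past 2-fold lay in both directions and at low levels. Of 59 genes 2 were higher and 3 lower, against 1.62% and 1.57% of all genes, with a median of 0.03 that read -0.13 after quantile normalization. HOP2 went from 4.86 to 6.85 and REC114 from 5.69 to 7.02, genes of meiotic recombination. SPR28, a sporulation septin, went from 6.90 to 5.13, SPS1 from 8.31 to 7.11 and SPS2 from 7.01 to 5.86. The highest 2 genes of all were dim as well. YFR057W, an uncharacterized reading frame, read 2.28 on the unheated and 7.46 on the heated array, of which the first lies below 2.61, the top value among probe sets for fission yeast, and the gene was at least 28.8-fold higher. YIR042C, also uncharacterized, went from 4.32 to 8.12 (13.9-fold). BSC1 (from 5.72 to 8.07), the deoxycytidylate deaminase gene DCD1 (from 5.06 to 7.31) and YNL042W-B (from 3.44 to 5.82) followed. Of the 12 genes above that fission yeast level on only 1 of the arrays, YJL136W-A (from 2.02 to 3.63) and BUD25 (from 2.24 to 3.74) were at least 2.03-fold and 2.18-fold higher. AAC3, the ADP/ATP carrier made without oxygen, was 3.26-fold higher (from 9.24 to 10.95), and PHO3, an acid phosphatase regulated by thiamine, 2.68-fold (from 9.25 to 10.67). Further lower genes were NCE103, the carbonic anhydrase (from 14.54 to 12.90), AQY1, a spore aquaporin (from 9.67 to 7.85), TOP3, a topoisomerase (from 8.45 to 6.59), and SAP185, a partner of the phosphatase Sit4 (from 9.69 to 7.96).

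Set gene by gene beside BY4741, more of the genes past 2-fold were past it in the opposite direction there than in the same one. Of the 88 higher genes, 38 were lower in BY4741 (43.2%, beside 18.8% of all genes) and 22 higher (beside 18.9%). Of the 85 lower genes, 32 were higher in BY4741 (37.6%, beside 18.9% of all genes) and 21 lower (24.7%, beside 18.8%). Among the genes past 2-fold under both labels in one direction were HOP2 and GAS4 upward and KRR1, NOP15 and NOP7 downward. In opposite directions were PCK1, MLS1, ICL1 and FAT3, a fatty acid uptake gene (from 12.21 to 10.62, and 6.40 and 11.38 in BY4741), and, the other way, UTR2, DCD1 and YFR057W. No array is shared by the compared differences, and whether the shares depart from the background was not tested.

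**Figure D5:**
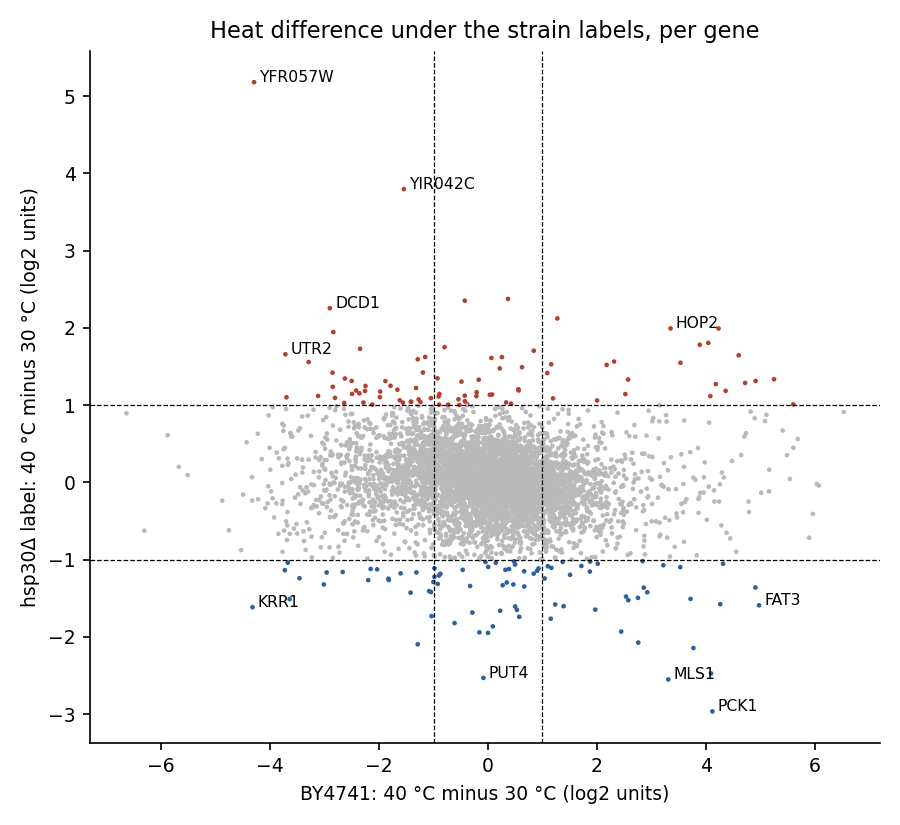
Each point is 1 of 5430 genes; the horizontal axis is the heat difference in BY4741 and the vertical axis that on the arrays labelled hsp30Δ, both in log2 units, with dashed lines at 2-fold. The cloud is wide along the BY4741 axis and narrow along the other, PCK1 and MLS1 lie at the lower right and YFR057W, DCD1 and UTR2 at the upper left.

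Lists whose medians are not given above had medians between -0.16 and 0.17, beside 0.01 over all genes. Their medians were -0.06 for sulfate assimilation, -0.04 for RNA polymerases I and III, -0.11 for mitochondrial ribosomal proteins, 0.14 for purines and pyrimidines, 0.12 for vitamins and 0.03 for phosphate. Hypoxic genes had 0.17, or 0.02 without suffixed probe sets, protein kinase A and Ras -0.15, aryl-alcohol dehydrogenases -0.16, alpha-specific genes 0.13, or -0.01 with a level trend removed, genes next to HSP30 on its chromosome 0.13 and other sugars 0.00. Past 2-fold were 2 of 29 hypoxic, 1 of 5 alpha-specific, 1 of 33 purine and pyrimidine and 1 of 26 vitamin genes, all higher. Of 25 phosphate genes 1 was lower. Over all genes 1.62% were higher and 1.57% lower. Of the 173 genes past 2-fold, 73 belong to a list and 100 to none.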

How the data were processed

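Gene expression was measured on 4 Affymetrix arrays that carry budding and fission yeast probe sets. Per the submitters' processing notes the tools were GCRMA and MAS5. Their roles, versions and order, and what was done before GCRMA, are not given in the sources used here. The deposited values are treated as log2 expression values normalized by the authors, since they run from 1.95 to about 16 on every array. All 4 value columns belong to these arrays, and 0 columns belong to other samples.

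Probe sets were named through the platform annotation: of 5802 probe sets, 5483 name budding yeast genes, 32 name fission yeast genes and 287 are unnamed. Where a gene had several probe sets, the brightest by its mean over all 4 arrays was used. Values were floored at 1.96, the median over arrays of the 95th percentile among fission yeast values, and genes at or below it on all 4 arrays (6) were left out. Differences are heated minus unheated array. With 1 array a group the arrays' number limits the precision, and no test or spread could be computed.

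The members, gene lists and thresholds were chosen with earlier results of these data known. Chosen by rule were a set of heat and label-check genes, the 20 highest and 20 lowest differences, and up to 8 genes each way detected on a single array. From each list the rule also took up to 6 members past 2-fold or else its 2 largest. Not all genes chosen by rule are named in the text. Genes named beyond the rule were chosen after their values were seen. Some lists follow gene names and hold a few genes of another role. Motifs in promoters were not used here. Alternatives were another scaling, a level trend, other floors, filters, probe set rules and thresholds. Counting was tested on simulated data. Tools were Python 3.11.15, numpy 2.4.6, pandas 2.3.3, statsmodels 0.14.6 and matplotlib 3.10.9.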

Additional observations from a re-analysis of the deposited data

Results flagged for a closer look

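For 13 genes the heat differences under the hsp30Δ label and in BY4741 were past 2-fold in opposite directions and lay 5 or more log2 units apart. With 1 array in each group the gaps were not tested. As hsp30Δ minus BY4741, the gap was -7.08 for PCK1, -6.57 for SFC1, -5.91 for RGI2, -5.86 for MLS1, -6.27 for JEN1 and -5.23 for ICL1, genes tied to growth without glucose. It was -6.57 for FAT3, -5.84 for BSC4 and -5.37 for LDS1. It was 9.48 for YFR057W, 5.38 for UTR2, 5.34 for YIR042C and 5.16 for DCD1. For the genes of growth without glucose the unheated hsp30Δ array and the heated BY4741 array both read high, such as 10.40 and 10.71 for SFC1 and 13.22 and 12.93 for RGI2.

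Probe sets with no gene name lie outside the comparisons by gene. Of these 287, 12 were at least 2-fold apart on the arrays labelled hsp30Δ, 8 higher and 4 lower, with differences between -1.55 and 1.86. That is 4.18% of them, beside 3.19% of all genes. No fission yeast probe set was past 2-fold. This was nearly fixed in advance, since the floor was set from these probe sets and only 2 of the 32 lay above it on any array.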

How the results depend on the processing

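With genes of a mean level of at least 8 only, the higher genes numbered 57 instead of 88, because 448 dimmer genes leave, and the lower genes 65. By construction the threshold moved the counts most, to 442 higher and 423 lower at 1.5-fold and to 20 and 23 at 3-fold. Quantile normalization gave 102 higher and 118 lower genes, with 82 and 85 of the original ones among them. Subtracting a lowess curve of the difference on level gave 80 higher and 96 lower. The remaining alternatives gave 84 to 90 higher and 84 to 88 lower genes. ENA5 turned from lower to higher by 0.17 with only probe sets of no suffix. Of the 88 genes chosen by rule and past 2-fold, 7 fell under it in some alternative of scaling, floor or probe set. Of the genes chosen by rule and under it, 1 passed. Of 54 list medians 47 kept their sign in every alternative. In 4 lists the median moved by more than 0.1: meiosis (-0.13 under quantile normalization), hypoxic genes (0.02 with only probe sets of no suffix), hexose transporters (0.02 with the lowess curve, 0.27 at a level of at least 8) and alpha-specific genes (-0.01 with the lowess curve). The cause was not tested. No paired analysis was possible because each group holds 1 array. Differences at a level of 14 and above had an SD over genes of 0.25, and at 4 to 6, where they varied most, of 0.99. In 45 genes with several probe sets the differences lay a median of 0.23 log2 units apart, and 3 genes by more than 1.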

Other observations

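Genes near chromosome ends were past 2-fold more often than the rest. The grouping was chosen after values were seen. Of 231 genes within 10 genes of an end, 16 were higher and 6 lower (9.52%), against 72 and 79 of 5196 elsewhere (2.91%). Dim genes are more frequent there, with 23.4% under a level of 8 against 7.58%. YFR057W and YIR042C, with the highest differences of all, are each the first listed gene at an end. IRC7 (from 9.03 to 10.97) and COS9 (from 7.54 to 8.63) belong to this group. So do the neighbours YOL162W (from 5.26 to 7.25) and YOL163W (from 3.81 to 5.34), which both read higher. Among the lower ones are PCK1, YAT1, JEN1 and KRR1, and also STL1, a glycerol transporter gene (from 6.06 to 4.88), and FDH1, formate dehydrogenase (from 8.87 to 7.80).

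By chromosome, 2.12% to 5.44% of genes were past 2-fold, beside 3.19% of all genes (1.62% higher, 1.57% lower). Chromosome XVI held 0 higher and 10 lower of 424 genes, chromosome XI 3 and 11 of 293, and chromosome XIV 11 and 5 of 365. Of 135 genes with a suffixed systematic name 8.89% were past 2-fold, and 49.6% of the 135 had a level under 8, against 2.81% and 6.44% of 4940 genes with a standard name. These shares were not tested.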
